A study of Mus musculus with 18 samples.

Results

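Acta2, Tagln, Myh11, Cnn1, Actg2, Des, Lmod1 and Mylk encode parts of the contractile apparatus of smooth muscle, and they were followed through 18 laser-captured lung metastases. The set is defined by gene names, with no threshold on a measured value, and holds 8 of the 49585 gene identifiers in the count table. All 8 passed the filter on low counts, which kept 16917 genes. The lesions had grown from AT3 cells, a mouse mammary carcinoma line labelled with GFP and mCherry, which spread to the lung after injection into the mammary fat pad. The study set lesions that grew with transferred NK cells against lesions that grew without them. Mice NK1 (3 lesions) and NK2 (4 lesions) received 60000 mouse NK cells, activated in culture, by vein on day 11. Mice KO1 (5 lesions), KO2 (4 lesions) and KO3 (2 lesions) received PBS at that time and form the group labelled Ctrl. All 5 hosts were immunodeficient: the strain label gives Rag2-/-IL2rg-/-, the growth protocol gives Rag1-/-IL2rg-/-, and hosts of either genotype lack T, B and NK cells of their own. The hosts still have the vessels, airways and fibroblasts of the lung. A lesion is named by mouse and lesion number, so that NK1-3 is lesion 3 of mouse NK1.

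In a smooth muscle cell, a rise in calcium switches on the kinase that Mylk encodes. The kinase phosphorylates a light chain of myosin, and the myosin motor encoded by Myh11 then pulls on actin filaments. Most of these genes are switched on by serum response factor (SRF) and its partner myocardin, which act at a DNA element called the CArG box. In the lung, smooth muscle surrounds arteries, veins and conducting airways. Several of the genes are not restricted to it: pericytes and myofibroblasts make Acta2 and Tagln, heart and skeletal muscle make Des, and the myoepithelium of the mammary gland makes Acta2, Myh11, Cnn1 and Mylk. A longer form of the Mylk kinase is made by endothelium and many other non-muscle cells.

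Total counts were 2964241 to 11798853 per lesion, of which 12.1% to 68.7% fell on mt-Rnr2, a ribosomal RNA of mitochondria. Its share was over 40% in 6 lesions: NK1-1, NK1-2, NK1-3, KO1-2, KO1-5 and KO3-2. These lesions leave fewer counts for other genes, so that 3 counts of a gene correspond to 2.16 CPM in NK1-3 and to 0.174 CPM in NK2-4 (CPM, counts scaled to the TMM-adjusted library size). Lesion NK1-1 stood apart in its markers. It held 299 of the 335 counts of the heart muscle myosin Myh6 and all 477 counts of the fat cell hormone Adipoq. The tested tumour epithelium markers were dominated by Vim, a mesenchymal gene that fibroblasts and endothelium express too, at 292 to 2020.5 CPM in NK lesions and 905 to 2409 CPM in Ctrl lesions. The other 7 markers of that list summed to 82.9 to 890.1 CPM in NK lesions and 67.6 to 334 CPM in Ctrl lesions. The highest of these sums was in NK1-3, which also had the highest sum of airway epithelium markers (24845 CPM). Tumour and lung epithelium are not separated in these sums, so they do not measure tumour content. The sum of tested alveolar epithelium markers was 247 to 3376 CPM in NK lesions and 705 to 3613 CPM in Ctrl lesions. Every captured lesion thus carried RNA of lung epithelium as well.

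Over all 18 lesions, 7 of the 8 contractile genes went up and down together from lesion to lesion, and Mylk did not. Whether Mylk also stood apart without the lesions with a high mt-Rnr2 share was not tested. Acta2 was seen in all 18 lesions, while Cnn1 and Lmod1 had a count in 11 lesions each. None of the 8 passed the test between NK and Ctrl mice across all genes. Fold changes of 7 genes were positive and that of Mylk was negative, and 5 of the 7 positive ones turned negative once the single lesion NK1-1 was left out.

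Acta2 (ENSMUSG00000035783.8; GRCm38 chromosome 19, 34241090 to 34255590, minus strand) encodes the smooth muscle α-actin of the thin filaments. It had 3053 counts in all. Its level was 11.0 (lowest), 20.2 (median) and 33.5 CPM (highest) over the 7 NK lesions, against 3.74, 10.6 and 30.7 CPM over the 11 Ctrl lesions. The highest NK lesion was NK2-1 and the highest Ctrl lesion was KO2-1, and the groups overlapped over most of their range. With the counts of a mouse summed, Acta2 stood at 18.7 CPM in NK1 and 24.5 CPM in NK2, against 20.6, 13.3 and 11.7 CPM in KO1, KO2 and KO3. The log2 fold change, NK over Ctrl, was 0.51 ± 0.44 (SE, 2 against 3 mice).

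Acta2 carries a pair of CArG elements just before its RefSeq start, which are textbook examples of SRF binding sites. Among the 5 genes with a promoter window, only Acta2 held a match. Binding of SRF was not measured, and a link between these elements and the levels over lesions was not tested. Each is printed with its flanks on the minus strand of GRCm38.p6, at chr19:34255438-34255467 and chr19:34255388-34255417, with the element in capitals. The windows before the starts of Des (chr1:75360042-75360291, plus strand) and Mylk (chr16:34784700-34784920, plus strand) are shown beside them as examples without a match. The Mylk window lies before an annotated start inside the gene, and which form of the kinase that start serves was not checked. No letters are in capitals in these, because no CArG box was found.
Acta2 distal element: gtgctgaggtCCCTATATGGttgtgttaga
Acta2 proximal element: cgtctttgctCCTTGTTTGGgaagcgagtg
Des: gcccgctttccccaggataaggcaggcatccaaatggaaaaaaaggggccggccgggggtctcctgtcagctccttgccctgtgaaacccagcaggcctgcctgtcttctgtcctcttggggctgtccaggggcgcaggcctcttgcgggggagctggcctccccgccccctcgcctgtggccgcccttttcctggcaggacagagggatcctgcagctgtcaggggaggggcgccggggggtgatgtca
Mylk: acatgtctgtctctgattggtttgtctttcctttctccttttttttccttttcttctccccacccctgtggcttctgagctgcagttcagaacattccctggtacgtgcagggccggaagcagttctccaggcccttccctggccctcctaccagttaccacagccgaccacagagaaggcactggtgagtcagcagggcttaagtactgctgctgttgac
The search allowed at most 1 G or C in the core of A and T. The Acta2 matches, CCCTATATGG and CCTTGTTTGG, begin at -84 and -34 from the start, and each has 1 G or C in the core. The element reads the same on both strands, so 1 search covered both. Over windows of 300 bases, 250 before and 50 after the RefSeq start, matches were found in Acta2 and not in Mylk, Cnn1, Des or Lmod1. Of 32851 RefSeq windows of that length, 9.98% held such a match, 1.63% held one with only A and T in the core, and 0.822% held 2 or more. A match is a description of the letters, and no match says only that the letters are not in this window.

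Actg2 (ENSMUSG00000059430.14; chromosome 6, 83512905 to 83536265, minus strand) encodes γ-actin of smooth muscle, the actin typical of gut and other hollow organs. It was far rarer, with 324 counts. Over NK lesions it was 0 (lowest), 2.21 (median) and 5.29 CPM (highest), and over Ctrl lesions 0, 0.083 and 3.25 CPM. No count was found in NK1-2 or in 5 of the 11 Ctrl lesions. A count of 0 allows up to 1.22 CPM in NK1-2, and from 0.220 CPM (KO2-2) to 1.37 CPM (KO1-5) in those Ctrl lesions (3 counts, counting error only). All 4 lesions of NK2 (2.21 to 5.29 CPM) lay above the Ctrl median, and KO2-1 (3.25 CPM), KO1-1 (2.53 CPM) and KO1-3 (2.25 CPM) reached the same range. By mouse, Actg2 was 1.43 and 3.55 CPM in NK1 and NK2, against 1.70, 0.856 and 0.870 CPM in KO1, KO2 and KO3 (log2 fold change 1.13 ± 0.89). The coding sequences of Acta2 and Actg2 were 84.2% identical, with identical runs of up to 29 bases, and Acta2 shared 82.5% with the heart actin Actc1. Its longest identical runs were with the cytoplasmic actins, 56 bases with Actg1 and 47 bases with Actb. Estimated counts can be split between such copies, so actin values are uncertain.

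Tagln (ENSMUSG00000032085.5; chromosome 9, 45929619 to 45936058, minus strand) encodes transgelin or SM22, an actin-binding protein and an early marker of the smooth muscle lineage. Its levels were 1.22 (lowest), 15.03 (median) and 40.2 CPM (highest) over NK lesions, against 0.472, 7.36 and 20.7 CPM over Ctrl lesions. The NK group held both a lesion above all Ctrl lesions, NK1-1, and a pair near the bottom, NK1-2 with 3 counts and NK1-3 with 3 counts. By mouse, Tagln was 24.8 CPM in NK1 and 17.3 CPM in NK2, against 15.98, 8.05 and 6.09 CPM in KO1, KO2 and KO3. It was the only 1 of the 8 with both NK mice above every Ctrl mouse, an order that 7.94% of the 16917 genes also had; 6.86% had both NK mice below. The log2 fold change was 1.06 ± 0.53 (edgeR unadjusted p = 0.0803), and -0.05 without NK1-1, which held 97.7% of the Tagln counts of mouse NK1. Tagln shares 1241 exon bases with Gm48529 and 108 with Pcsk7 on the opposite strand, and how strands were counted is not stated by the sources used, so reads of these genes cannot be told apart there.

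Cnn1 (ENSMUSG00000001349.5; chromosome 9, 22099216 to 22109630, plus strand) encodes calponin, which binds actin and restrains myosin, and is among the more restricted markers of mature smooth muscle. Of its 454 counts, 185 came from lesion NK1-1 alone. That lesion had 29.2 CPM, while NK2-1, NK2-2, NK2-3 and NK2-4 had 2.77, 2.09, 2.40 and 0.814 CPM, NK1-3 had 1 count and NK1-2 none. Ctrl lesions had 6.28 CPM in KO1-3, 3.99 CPM in KO1-1, 1.98 CPM in KO3-1, 1.28 CPM in KO2-1 and 1 count in KO1-4, and 6 of the 11 had none. Outside NK1-1, then, no NK lesion was above the highest Ctrl lesion. The mouse values were 17.7 and 2.05 CPM in NK1 and NK2, against 3.42, 0.329 and 1.31 CPM in KO1, KO2 and KO3. The log2 fold change of 2.53 ± 1.14 had the smallest p of the 8 (edgeR unadjusted p = 0.0570). It was -0.43 without NK1-1 and 0.29 without mouse NK1.

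Myh11 (ENSMUSG00000018830.8; chromosome 16, 14194535 to 14291372, minus strand) encodes the heavy chain of smooth muscle myosin, the motor itself and the marker most restricted to smooth muscle. It had 0 (lowest), 7.94 (median) and 18.3 CPM (highest) over NK lesions, against 0.269, 3.66 and 34.4 CPM over Ctrl lesions. The top value was that of KO1-3, whose 443 counts were 54.6% of all Ctrl counts of the gene. NK1-1 (116 counts) and NK2-1 (219 counts) led the NK lesions, and NK1-2 and NK1-3 had 0 and 1 counts. Summed by mouse, Myh11 was 11.1 and 10.5 CPM in NK1 and NK2, between the 18.5 CPM of KO1 and the 2.17 and 4.35 CPM of KO2 and KO3. The spread among Ctrl mice was thus wider than the distance between the groups (log2 fold change 0.37 ± 0.85). It was -0.57 without NK1-1 and -0.082 without mouse KO2, and 1.04 without lesion KO1-3 and 1.75 without mouse KO1.

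Mylk (ENSMUSG00000022836.10; chromosome 16, 34745210 to 35002420, plus strand), the kinase that starts contraction, had 4334 counts, the most of the 8. Its levels were 5.04 (lowest), 19.7 (median) and 27.1 CPM (highest) over NK lesions, against 11.2, 25.4 and 122 CPM over Ctrl lesions. KO3-2 was the highest lesion with 519 counts, and KO3-1 followed with 45.3 CPM. The lesions of NK2 lay close together at 19.7 to 27.1 CPM, and NK1-3 and NK1-1 were at 5.04 and 12.3 CPM. By mouse, Mylk was 12.7 and 26.0 CPM in NK1 and NK2, against 29.0, 18.4 and 75.1 CPM in KO1, KO2 and KO3. The log2 fold change was -1.07 ± 0.67 (edgeR unadjusted p = 0.147) and -0.29 without mouse KO3. In KO3-2, where Mylk was highest, Cnn1, Actg2 and Lmod1 had no count and Tagln had 2. Exons of Mylk share 548 bases with E130310I04Rik and 224 bases with Gm21691 on the opposite strand, and neither of those genes was analysed here.

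Des (ENSMUSG00000026208.9; chromosome 1, 75360329 to 75368579, plus strand) encodes desmin, the intermediate filament protein of all muscle types and of many pericytes. It had 0 (lowest), 3.99 (median) and 9.46 CPM (highest) over NK lesions, against 0.920, 3.20 and 8.40 CPM over Ctrl lesions. The groups covered nearly the same range, and every Ctrl lesion had a count. By mouse, Des was 6.09 and 5.64 CPM in NK1 and NK2, against 7.02, 2.04 and 3.57 CPM in KO1, KO2 and KO3 (log2 fold change 0.48 ± 0.71). Without NK1-1 its log2 fold change was -0.27.

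Lmod1 (ENSMUSG00000048096.7; chromosome 1, 135324807 to 135368065, plus strand) encodes leiomodin, which nucleates actin filaments in smooth muscle. It was at the edge of detection, with 92 counts in all, 44 in NK lesions and 48 in Ctrl lesions. Its levels were 0 (lowest), 0.436 (median) and 1.58 CPM (highest) over NK lesions, against 0, 0.073 and 1.85 CPM over Ctrl lesions. KO1-1 with 19 counts was highest, and 2 of 7 NK lesions and 5 of 11 Ctrl lesions had none. By mouse, Lmod1 was 0.952 and 0.607 CPM in NK1 and NK2, against 0.863, 0.351 and 0.087 CPM in KO1, KO2 and KO3. The log2 fold change was 0.78 ± 1.21, and -0.25 without NK1-1.

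**Figure D1:**
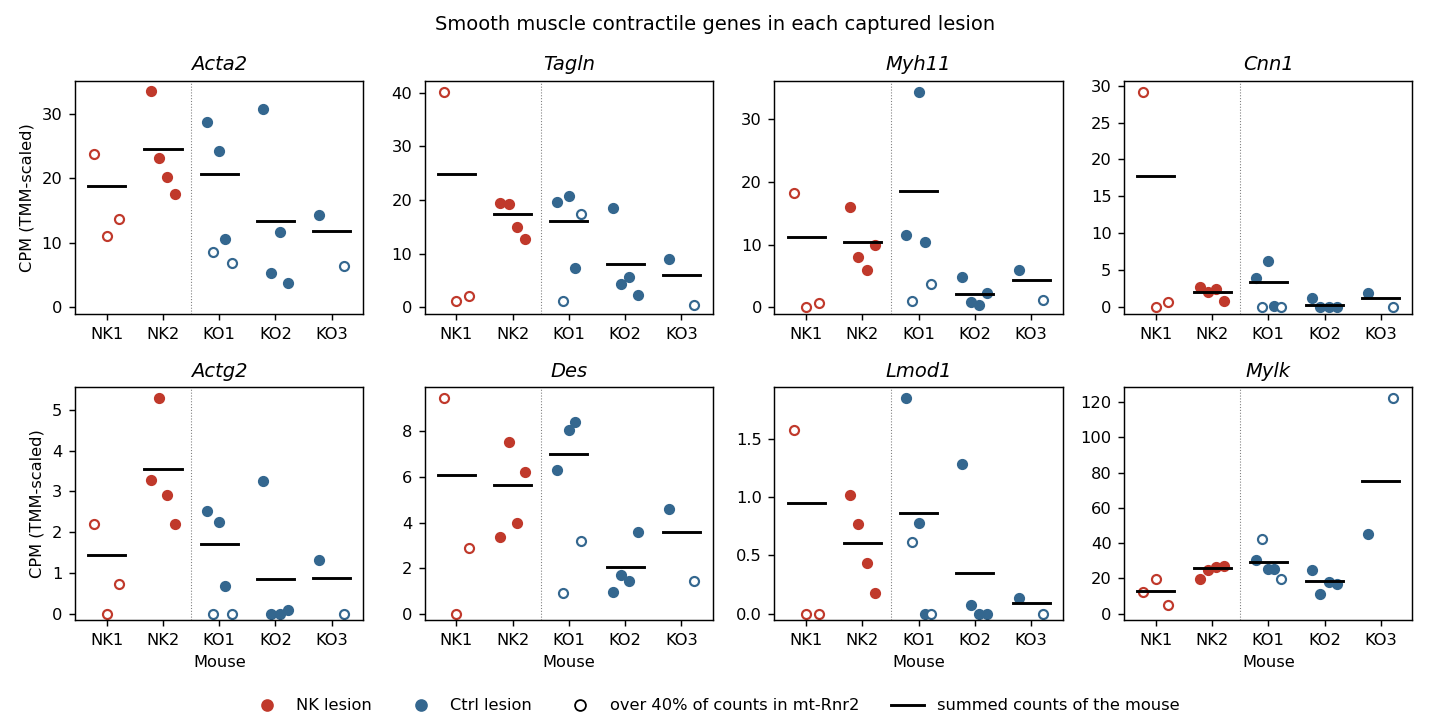
Level of each gene in TMM-scaled CPM (linear axis) in each captured lesion, grouped by mouse, with NK mice on the left and Ctrl mice on the right of the dotted line. Points are lesions, open points are those in which mt-Rnr2 holds over 40% of counts, and the black line is the value from the summed counts of the mouse. For Cnn1 the lesion NK1-1 stands at 29.2 CPM with every other lesion at 6.28 CPM or less, and for Mylk the lesion KO3-2 stands at 122 CPM.

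With Benjamini-Hochberg adjustment over the 16917 genes, 0 of the 8 passed the threshold of 0.05 in the quasi-likelihood test of edgeR (adjusted p = 0.9998 for each). The test called 0 of the 16917 genes (0%), and 39 genes were called by DESeq2, none of them among the 8. At an unadjusted p under 0.05, edgeR gave 262 genes as higher in NK mice (1.55% of those tested) and 164 as lower (0.969%), and 0 of the 8 were among either. The median log2 fold change of the 8 was 0.64, against -0.028 for all genes tested, of which 48.3% were positive. It was -0.26 without NK1-1, 0.44 without mouse NK1 and 1.57 without mouse KO1. With the 6 lesions over 40% mt-Rnr2 left out, the median was 0.23 and Cnn1 was at -0.075. That setting removes every lesion of mouse NK1, so NK2 is the only NK mouse left. It therefore cannot separate RNA quality from the loss of that mouse. Counts varied between mice of a group by 64.9% (coefficient of variation of the common dispersion), and a p that misses the threshold does not show that the levels were equal. In these captured regions, fewer cells of a type and less RNA per cell cannot be told apart.

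**Figure D2:**
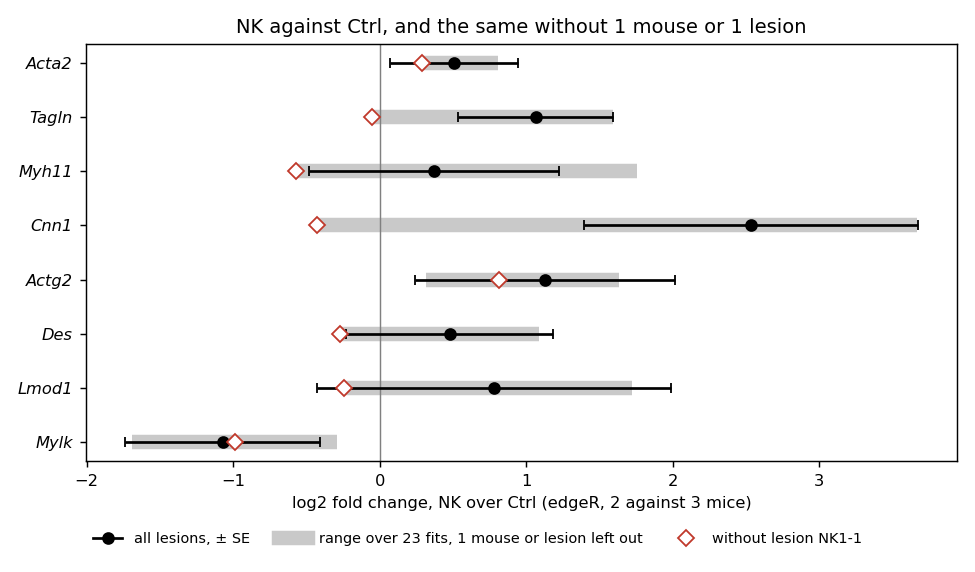
Log2 fold change of each gene, NK over Ctrl, from the edgeR fit over 2 NK and 3 Ctrl mice (black points, bars ± SE), the range of the same value over 23 fits that each leave out 1 mouse or 1 lesion (grey bars), and the value without lesion NK1-1 (open diamonds). Without NK1-1 the values of Tagln, Myh11, Cnn1, Des and Lmod1 are below 0, while Acta2 (0.29) and Actg2 (0.82) stay above 0 and Mylk stays below 0 in all 23 fits.

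Per kilobase of merged exon, which allows levels to be compared between genes, the actin Acta2 had the highest median over the 18 lesions (6.35 CPM per kb). Tagln followed at 5.47 CPM per kb, Mylk at 2.18, Des at 0.922, Myh11 at 0.711, Actg2 at 0.654, Cnn1 at 0.280 and Lmod1 at 0.039 CPM per kb. Acta2 was above Tagln in 16 of 18 lesions and, as the mean over a mouse's lesions, in 5 of 5 mice. Tagln was above Mylk in 14 lesions, Mylk above Des in 16, and Des above Myh11 in 14, each in 4 of 5 mice. The order of Myh11, Actg2 and Cnn1 was not stable: Myh11 was above Actg2 in 9 of 18 lesions and Actg2 above Cnn1 in 10, each in 3 of 5 mice. Cnn1 was above Lmod1 in 11 lesions and in 5 of 5 mice. KO3 departed from the order for Mylk, which had 7.45 CPM per kb there, against 4.69 CPM per kb for Acta2 and 2.37 CPM per kb for Tagln.

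Lesions of the same mouse differed widely in 7 genes. For these 7, differences between mice made up 15.4% (Lmod1) to 36.1% (Actg2) of the sum of squares of log2 CPM. For Mylk the share was 70.7%. The median share of the 8 genes was 26.7%, but 42.1% without lesion NK1-1 and 52.8% without the lesions over 40% mt-Rnr2. These settings were chosen after seeing the data, and the second leaves out all of mouse NK1. In mouse NK1, lesion NK1-1 had 40.2 CPM of Tagln and lesion NK1-2 had 1.22 CPM, and the lesions of NK1 differed as widely in Myh11 (18.3 CPM in NK1-1 and none in NK1-2). The 4 lesions of NK2 were close together, at 12.8 to 19.5 CPM of Tagln. KO2 held 1 high lesion, KO2-1, with 30.7 CPM of Acta2 and 18.6 CPM of Tagln, and 3 low ones, with Acta2 at 5.28, 11.7 and 3.74 CPM and Tagln at 4.33, 5.66 and 2.33 CPM. Of the counts that mouse NK1 contributed, lesion NK1-1 held 76.6% for Acta2, 58.6% for Mylk and 93.3% to 100% for the other 6 genes.

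Over the 18 lesions, which come from 5 mice and share depth and mt-Rnr2 content within a library, 21 pairs of the 8 genes did not involve Mylk. Their Pearson r of log2 CPM ran from 0.322 (Acta2 and Des) to 0.878 (Acta2 and Actg2), with a median of 0.754, and 19 of the 21 were over 0.5. The median Spearman rho of these pairs was 0.775. Cnn1 and Actg2 gave 0.846, and the motor Myh11 and the filament gene Des gave 0.835. With the mean of each mouse taken off, the median of the 21 was 0.755, so lesions of the same mouse showed it as well. The 7 pairs with Mylk ran from -0.215 to 0.116. In KO3-2 and KO1-2, both with a high mt-Rnr2 share, Mylk was at 122 and 42.3 CPM, while Cnn1 and Actg2 had no count. In the other lesions with such a share, Mylk was at 5.04 to 19.7 CPM. Without all of these lesions, the SD of r over all pairs was 0.239, against 0.354 with them. The pairs with Mylk were not set apart there, so whether Mylk stays apart was not tested. Low counts limit the values of Lmod1 in particular, and no test was made on these correlations.

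**Figure D3:**
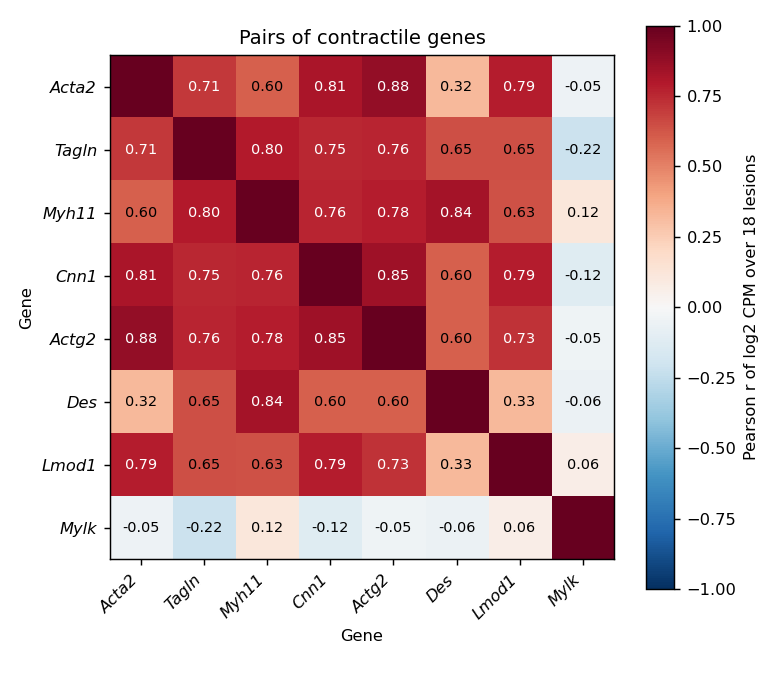
Pearson r of log2 CPM (prior count 2) over the 18 lesions for each pair of the 8 genes, on a colour scale from -1 to 1. The block of 7 genes is red throughout, from 0.322 to 0.878, and the row and column of Mylk are pale, from -0.215 to 0.116.

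The mean of the 8 standardised log2 CPM values, here the score of a lesion in SD units, was above 0 in 9 lesions. It was 1.06 in NK1-1 and 0.777, 0.776, 0.520 and 0.399 in the lesions of NK2, against 0.965 in KO1-1, 0.950 in KO1-3, 0.509 in KO2-1 and 0.334 in KO3-1. It was lowest in NK1-2 (-1.29), and -0.685 in NK1-3. Among low Ctrl lesions, KO2-2, KO2-3 and KO2-4 had -0.930, -0.793 and -0.823. Of the 6 lesions over 40% mt-Rnr2, 5 were below 0, and NK1-1, with 47.6%, was the highest of all. Of the 12 lesions under 40%, 8 were above 0. In the 5 low lesions with a high mt-Rnr2 share, Cnn1 and Actg2 had 1 count each and Lmod1 had 2 in all. The part of RNA quality in this was not tested.

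**Figure D4:**
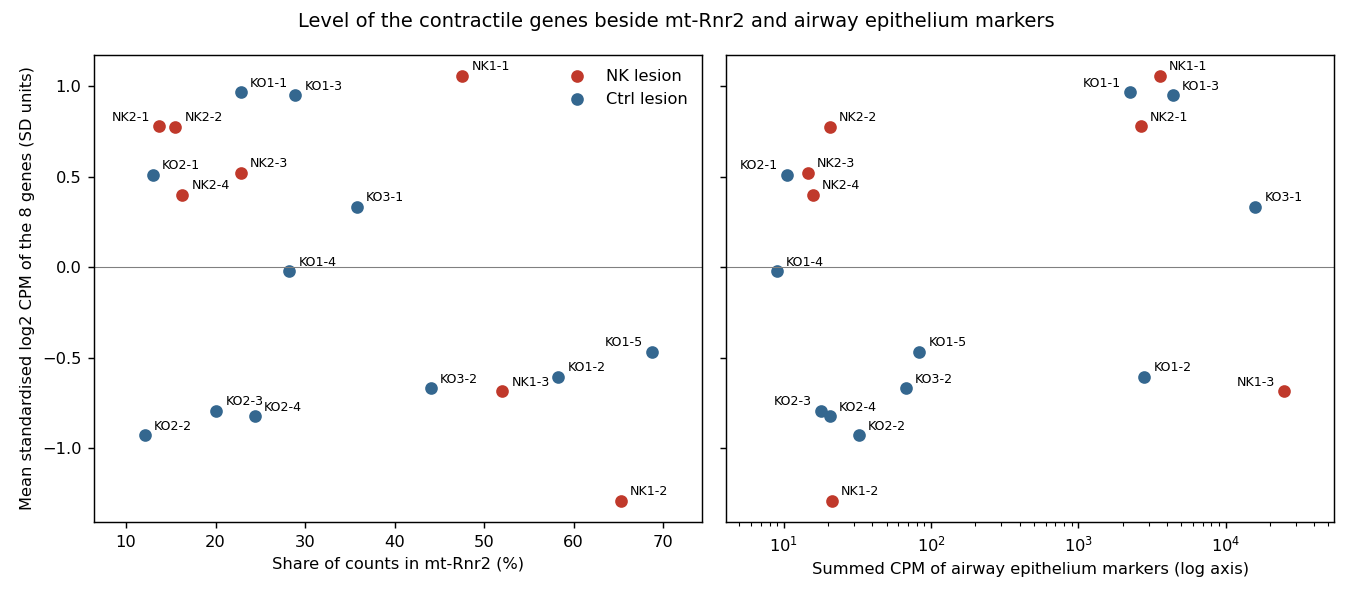
Mean standardised log2 CPM of the 8 genes in each lesion (SD units) against the share of counts in mt-Rnr2 (left, linear axis) and against the summed CPM of airway epithelium markers (right, log axis), with each point labelled by lesion. NK1-1 is at 1.06 with 47.6% mt-Rnr2, the other 5 lesions over 40% are below 0, and KO2-2, KO2-3 and KO2-4 are below -0.7 with 12.1% to 24.4%.

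High and low lesions overlapped in the markers of other cells, although some of these markers followed the score in part. Summed CPM of the 8 tested airway epithelium markers (of 9), such as the secretoglobin Scgb1a1, was 2247 or more in 7 lesions and 83.2 or less in the other 11. Of the 7, 5 had a score above 0 (NK1-1, NK2-1, KO1-1, KO1-3 and KO3-1) and NK1-3 and KO1-2 did not. Of the other 11, 4 had a score above 0. The 6 mesothelium markers, which mark the lining of the lung surface, summed to 2.62 to 217 CPM in NK lesions and 0.914 to 363 CPM in Ctrl lesions. They were at 363, 164 and 110 CPM in KO2-2, KO2-3 and KO2-4 and at 217 CPM in NK1-2, all with a score below 0, but also at 127 CPM in KO2-1, with a score above 0. The other lesions with a score below 0 had 0.914 CPM (KO1-5), 1.23 CPM (KO1-2), 26.9 CPM (KO1-4), 29.5 CPM (KO3-2) and 43.9 CPM (NK1-3). The median r of the 6 with the score was -0.504, and -0.804 without the lesions with a high mt-Rnr2 share. With the mean of each mouse taken off, r was -0.377 (Upk3b), -0.304 (Lrrn4), -0.216 (Gpm6a) and -0.203 (Msln), but 0.253 (Wt1) and 0.127 (Nkain4). The negative r was thus weaker or absent within mice. The part of the tissue around the capture in these values was not tested.

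Lesion NK1-1, without which 5 of the fold changes had the other sign, also had the highest summed CPM of heart muscle, fibroblast and fat cell markers. The 11 tested heart muscle markers (of 15) summed to 252 CPM in NK1-1. They were at 1.96 (lowest), 4.73 (median) and 252 CPM (highest) over NK lesions, against 0.805, 6.44 and 41.5 CPM over Ctrl lesions. NK1-3 had 82.0 CPM and the lesions of NK2 had 1.96 to 4.82 CPM. The sum in NK1-3 was mostly Tnni3 (73.4 CPM), with Myl7 at 5.04 CPM and Ryr2 at 3.60 CPM. Myh6, Actc1, Tnnt2 and Myl4 had no count there. All 11 had a positive log2 fold change with NK1-1 included, against 48.3% of all genes tested. That lesion held a median of 55.8% of the counts of the 15 genes. The 15 fibroblast markers summed to 10726 CPM in NK1-1, and were at 892 (lowest), 2418 (median) and 10726 CPM (highest) over NK lesions, against 569, 1316 and 1681 CPM over Ctrl lesions. The sum in NK1-1 was mostly Col3a1 (6909 CPM) and Fn1 (1594 CPM). Of the 15 genes, 5 were highest in NK1-1 (Col3a1, Dcn, Lum, Postn and Aspn, named after their values were seen), while Col1a1 was at 10.7 CPM there, against 49.0 CPM in KO1-4. Of these 15, 6 were at an unadjusted p under 0.05 in edgeR, all higher in NK mice, and 0 passed after adjustment. Markers of fat cells (2 of 7 tested, Cidec and Fabp4) summed to 420 CPM in NK1-1, and to 6.63 CPM or less in every other lesion. The 12 blood vessel endothelium markers summed to 49.96 CPM in NK1-1 and 50.7 CPM in NK1-2. They were at 49.96 (lowest), 318.5 (median) and 345 CPM (highest) over NK lesions, against 157, 266 and 504 CPM over Ctrl lesions. The lesions of NK2 had 318 to 340 CPM. All 12 genes had a negative log2 fold change (median -0.94), while 48.3% of all genes tested were positive. The median of lesion sums was nevertheless higher in NK lesions. In edgeR, 1 of the 12 was lower at an unadjusted p under 0.05, as were 0.969% of all genes, and 0 passed after adjustment. Their part in the contractile gene values was not tested.

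Mammary myoepithelium markers outside the 8 genes were at low counts. Krt14 had 2 counts and Krt17 had 1 count over all 18 lesions, and the 15 counts of Krt5 and 10 of the 16 counts of Trp63 came from NK1-1. Cdh3 had 42 counts in 5 NK and 7 Ctrl lesions, and was highest in NK1-2 (3.65 CPM). Oxtr had 11 counts in 4 NK lesions and 1 Ctrl lesion, and Lgr5 had 7 counts. The part of myoepithelium in the contractile gene values was not tested.

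The remaining genes of the contraction machinery gave no call in either direction. Of 22 other contractile and cytoskeletal genes, all tested, 8 had positive and 14 negative log2 fold changes (median -0.23), 0 passed in edgeR, and 0 were at an unadjusted p under 0.05. Those with the highest CPM were the tropomyosin Tpm1 (-0.16 ± 0.45), the myosin light chain Myl6 (-0.061 ± 0.39) and the LIM protein Fhl1 (-0.47 ± 0.44), all of which tumour cells and fibroblasts express too. Of 17 genes of calcium handling and cGMP signalling 14 were tested, with 10 positive and 4 negative (median 0.14). Among them, the kinase Rock2 gave -0.38 ± 0.43 and the GTPase Rhoa 0.22 ± 0.38. Over lesions these lists followed the score only weakly, with a median r of 0.166 for the first and 0.270 for the second.

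Of 15 names for transcription factors of the smooth muscle programme 13 were tested, 3 positive and 10 negative (median -0.22), again with 0 passing and 0 at an unadjusted p under 0.05. Srf, the factor that binds the CArG box, was at 37.5 and 52.8 CPM in NK1 and NK2, against 52.8, 62.2 and 42.5 CPM in KO1, KO2 and KO3 (log2 fold change -0.22 ± 0.38). Its r with the score was -0.282. Myocd, the myocardin gene, had 121 counts in 5 of 7 NK lesions and 7 of 11 Ctrl lesions, and its r with the score was 0.71 (chosen after its values were seen). Its log2 fold change was -0.88 ± 1.48. Tead1 gave -0.14 ± 0.46 and Jun -0.077 ± 0.38.

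Markers of the cells that carry the contractile genes did not pass either. Of 9 tested markers of vascular smooth muscle 4 were positive and 5 negative (median -0.19). Their sum was 25.1 to 78.4 CPM in NK lesions and 14.6 to 93.9 CPM in Ctrl lesions. The amine oxidase Aoc3 was the only 1 at an unadjusted p under 0.05 (log2 fold change 5.21 ± 1.54, edgeR unadjusted p = 0.00980), and 174 of its 216 counts were in NK1-1. Of 6 tested markers of airway and visceral smooth muscle 5 were positive (median 0.29). Of 10 pericyte markers 3 were positive and 7 negative (median -0.62), with sums of 21.5 to 56.0 CPM in NK lesions and 25.5 to 74.4 CPM in Ctrl lesions. Notch3, in both the vascular and the pericyte list, gave -0.73 ± 0.55.

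Outside the set, the 8 genes whose log2 CPM was most like the score over the 18 lesions were Gm17134 (r = 0.870), Cela1 (0.846), Gm26510 (0.828), Gm15764 (0.809), Csrp1 (0.793), Gm20655 (0.779), Actc1 (0.779) and Spdya (0.778). The median r of all other genes tested was 0.125. Csrp1, a LIM protein that binds actin-crosslinking proteins, was the only abundant one, with 19110 counts; the others had 38 to 259 counts, too few for a firm pattern. Csrp1 was at 157 CPM in NK1-1, 84.8 CPM in NK1-2, 109 CPM in NK1-3 and 111 to 126 CPM in the lesions of NK2, against 190 CPM in KO1-1 and 52.1 CPM in KO3-2. Without the lesions over 40% mt-Rnr2 its r was 0.847. By single gene, Myh11 was most like Abcc9 (r = 0.785) and Cnn1 most like Kcnj8 (r = 0.843), which encode subunits of a potassium channel of vascular mural cells. With 236 and 181 counts, these were also too rare for a firm pattern. The 10 pericyte markers, which include both, had a median r of 0.286 with the score, from -0.155 (Higd1b) to 0.774 (Kcnj8). Tagln was most like Nme4 (r = 0.871) and Des most like Zfp930 (r = 0.849). Mylk was most like Atad3a and Acp2 (r = 0.917 each), with 10623 and 4360 counts. Gm17134 led for Acta2 (r = 0.813), Gm43593 for Actg2 (r = 0.845) and Cela1 for Lmod1 (r = 0.837).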

How the data were processed

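RNA was measured in 18 laser-captured lesions of 5 mice, with 2 ng of total RNA per library. Per the submitters' processing notes, the tools included bcl2fastq 2.17, STAR, RSEM 1.2.28 and DESeq2, with build mm10; their roles are not stated. How strands were counted is not stated by the sources used. The authors deposited unscaled expected counts per gene, not all whole, as RSEM estimates them. They also deposited a normalized table, whose values look like log2 values and whose transformation is not stated. It served as an alternative only.

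Expected counts were rounded and summed over the lesions of each mouse, the replicate, because lesions of a mouse are not independent. Groups were compared with edgeR 4.0.16 in R 4.3.3 (TMM, filterByExpr with minimum count 10 and minimum total 15, robust quasi-likelihood F test, Benjamini-Hochberg adjustment, threshold 0.05). Nothing in the labels gives more than the mouse and lesion number. The smallest one-sided p of an exact permutation test with 2 and 3 mice is 0.1. An SE is the log2 fold change divided by the square root of F. The fit was tested on simulated counts. Alternatives used DESeq2 1.42.0 and limma 3.58.1, among others.

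Lesion CPM uses TMM over the 18 lesions, and log2 CPM a prior count of 2. Mouse CPM and lesion CPM have separate scalings. Promoter windows are printed up to the first annotated exon. Floors of 3 counts cover counting error only. Gene coordinates and exon lengths are from GENCODE M21, and promoter windows from RefSeq on GRCm38.p6, which holds 5 of the 8 genes; Tagln, Myh11 and Actg2 have none. Of 49585 identifiers, 49326 matched a symbol. Members and lists were chosen with earlier results of these data known. Genes outside the set were named by rule: in each list those past the threshold or else the 3 with the highest mean CPM, the 8 most like the score, and the most like each gene. Not every gene that the rule names is reported here.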

Additional observations from a re-analysis of the deposited data

Results flagged for a closer look

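Cnn1 in lesion NK1-1, at 29.2 CPM, lay far from the other 6 NK lesions, of which the next was at 2.77 CPM. The gap between these took 0.905 of the range of the 7 NK lesions. Cnn1 was the only 1 of the 8 genes flagged in this way among the NK lesions. The rule flags about 1 in 20 groups by chance if values are independent and normally distributed. That rate cannot be relied on here, since the 7 lesions come from 2 mice and CPM values are skewed. The 11 Ctrl lesions were not tested for such gaps.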

How the results depend on the processing

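None of the 8 genes passed the adjusted threshold in the main fit or in any of 34 alternatives, 23 of which left out 1 mouse or 1 lesion. Over the 8 genes in these 34 alternatives, 17 of the values had an unadjusted p under 0.05, most of them for Cnn1. The alternatives refit the same 5 mice, so the 17 are not independent. They include Cnn1 without mouse NK2, a fit that rests on 1 NK mouse. All those for Cnn1 kept lesion NK1-1, and without it the edgeR unadjusted p of Cnn1 was 0.747. The number of all genes called was 0 in the main fit, 224 without a filter on low counts and 39 with DESeq2, and 0 to 4 over the fits that left out 1 mouse or lesion. Numbers in the mouse names were not used as pairs in the main fit, and only 2 numbers were shared between groups. The values of r were 0.096 for NK1 and KO1 and 0.289 for NK2 and KO2. They cannot decide whether the animals were paired. With 2 NK mice, the unmatched values only mirror them (-0.289 for NK1 and KO2, -0.096 for NK2 and KO1). With the mouse number as a replicate block, 7 genes were called and the median of the 8 was 0.70.

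The median log2 fold change of the 8 was -0.28 without lesions NK1-1 and NK1-3, and -0.26 to 1.57 over the fits that left out 1 mouse or lesion. Without NK1-1 and NK1-3, Tagln was -0.032, Myh11 -0.55, Cnn1 -0.48, Des -0.43 and Lmod1 -0.13. Without lesions over 40% mt-Rnr2, Cnn1 was -0.075. Leaving out 1 mouse or lesion gave -0.05 to 1.59 for Tagln, -0.57 to 1.75 for Myh11, -0.43 to 3.66 for Cnn1, -0.27 to 1.09 for Des and -0.25 to 1.72 for Lmod1. In each, NK1-1 gave the lowest value and mouse KO1 the highest. Acta2 and Actg2 stayed positive and Mylk negative in all 34 alternatives. Lmod1 was not tested with the filter of 10 counts in 9 lesions. Fits that leave out an NK mouse rest on 1 NK mouse, assumed to vary like the Ctrl mice. The same holds for the fit without lesions over 40% mt-Rnr2, which keeps no lesion of NK1.

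Differences between mice held a median of 26.7% of the sum of squares over the 8 genes. The share was 42.1% without NK1-1 and 52.8% without lesions over 40% mt-Rnr2. These settings were chosen after seeing the data, and the second leaves out all of mouse NK1. The median r over 28 pairs stayed at 0.601 to 0.671. The SD of r over these pairs was 0.354 in the main setting and 0.239 without lesions over 40% mt-Rnr2. The pairs with Mylk were set apart only in the main setting and with the mean of each mouse taken off. Whether Mylk stays apart without lesions over 40% mt-Rnr2 was not tested. Lmod1 with 92 counts, Actg2 and Cnn1 are limited by depth, most of all in NK1-2 and NK1-3. The causes were not tested.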
